A study of Rattus norvegicus with 9 samples.

Results

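Voltage-gated sodium channels, voltage-gated calcium channels and hyperpolarization-activated cyclic nucleotide-gated (HCN) channels pass the inward currents that let neurons fire, pace their firing and release transmitter. Each sodium or calcium channel has a large pore-forming subunit and smaller auxiliary subunits that set its gating and its delivery to the cell surface, and HCN channels are assembled from 4 pore subunits. The channel genes were taken by symbol, as every row whose name is Scn with a number and the letter a or b, begins with Cacna, Cacnb or Cacng, or names an HCN channel. This gave 43 of the 22050 genes in the deposited tables. Pore subunits made up 23 of them, 10 of sodium, 9 of calcium and 4 of HCN channels. The other 20 were auxiliary, with 4 sodium channel beta, 4 alpha2delta, 4 cytosolic calcium channel beta and 8 gamma subunits. Most of the gamma subunits are better known as transmembrane regulators of AMPA-type glutamate receptors (TARPs).

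The RNA came from primary cortical neurons of Sprague Dawley rats at embryonic day 19, in 9 libraries that formed 3 groups of 3. The OGD+WR group was exposed to oxygen-glucose deprivation (OGD), which stands in culture for the loss of blood flow in stroke, and was given the secreted Wnt ligand Wnt3a (100 ng/ml) with Rspondin 1 (50 ng/ml), a protein that enhances Wnt signalling, over 24 h. The OGD group lacked glucose for 4.5 h at 1% oxygen before its return to normal oxygen, and controls had no treatment. The length and oxygen level of the deprivation are given for OGD alone, and for the hour of RNA harvest the sources used here give nothing. The deposited tables name the OGD group vehicle. The labels do not say whether the replicates of a group were separate cultures, so the p-values speak for the spread among these libraries, which may be technical.

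Library totals ran from 14285914 to 25048521 counts. Levels are given in FPKM, which is scaled by gene length and by library size, and changes are log2 changes of counts ± SE from edgeR's quasi-likelihood test, called at a Benjamini-Hochberg adjusted p under 0.05 over 13693 tested genes. On the first principal component, with 84.1% of the variance, control libraries stood at 92.9 to 95.8 and the others at -53.1 to -38.1, and OGD replicate 1 stood apart on the following component (38.8, against -13.9 to 10.5 for the rest). As a check of the cell label, the summed level of 12 neuron markers was 602.0 to 797.7 FPKM in OGD+WR, 608.0 to 825.8 FPKM in OGD and 3500.7 to 3710.2 FPKM in control, and all 12 fell in OGD (median log2 change -2.60). Astrocyte markers were also present in every library, with 10 genes summing to 6273.3 to 6585.1 FPKM in OGD+WR, 6666.6 to 7279.6 FPKM in OGD and 2502.0 to 2669.7 FPKM in control, and 9 of the 10 rose in OGD (median 1.20). In RNA from a whole culture, fewer neurons and less RNA per neuron cannot be told apart. The part of these markers in the changes of the channel genes was not tested.

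In OGD against control, the channel genes were mostly lower. Of the 36 members with enough counts to test, 33 fell, 2 rose and 1 was not called, while 73.1% of all tested genes were called in this comparison, 36.8% lower and 36.3% higher. The median log2 change was -2.24 over the tested members and 0.02 over all tested genes. Pore subunits had 18 lower and 1 higher of 19 tested (median -2.36), and auxiliary subunits 15 lower and 1 higher of 17 (median -2.20). The lower counts of all members and of pores include Scn4a, which passed the filter on low counts through its controls. The fall of Scn4a is a description. In TMM-scaled CPM (library-size-scaled counts), the libraries of OGD and control did not overlap for 35 of the 36 members, against 75.1% of all tested genes. The 2 members that rose were Scn7a and Cacng4. In the authors' deposited table for the same comparison, 33 of all 43 members had an FDR under 0.05 and were lower, and 2 were higher. The sets of lower members were not the same. The authors' set held Cacna1s (their FDR 0.0254), which was not tested here, and lacked Cacng7 (their FDR 0.0568). Without OGD replicate 1, 33 fell and 2 rose.

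The remaining 7 members had 0 to 17 counts in any library and were not tested. They were Cacna1f, Cacna1s, Cacna2d4, Cacng1, Cacng6, Scn10a and Scn11a, a set that includes the retinal calcium channel Cacna1f, the skeletal muscle genes Cacna1s and Cacng1 and the sensory neuron sodium channels Scn10a and Scn11a. Cacng6 had 1, 1 and 0 counts in OGD+WR, 1, 1 and 4 in OGD and 11, 2 and 17 in control. With no filter on low counts, all 43 members entered the test, and 35 were lower and 2 higher.

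**Figure D1:**
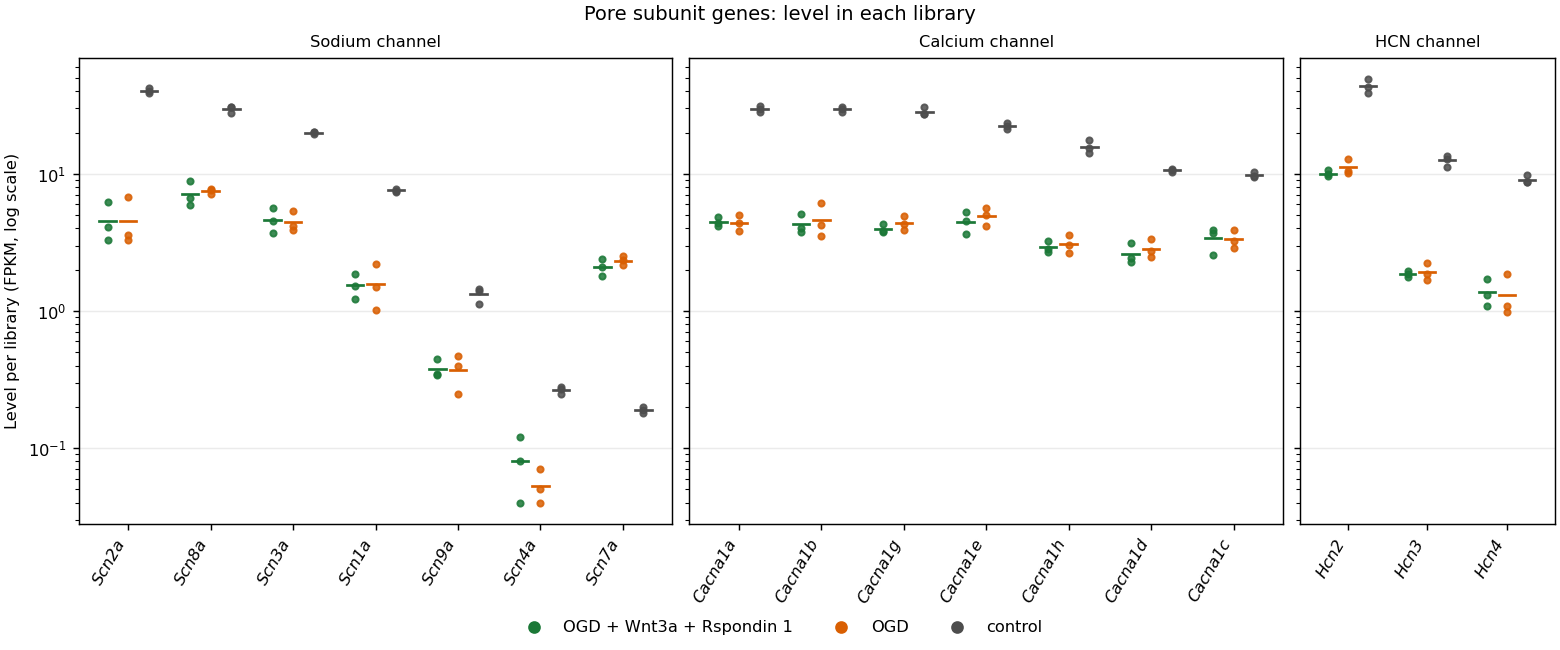
Level of tested pore subunit genes in each library (points, FPKM on a log axis) with the mean of the 3 libraries (bars), for OGD+WR, OGD and control from left to right, ordered by the control mean. Control points lie above both OGD groups except for Scn7a, which was at 0.18 to 0.20 FPKM in control and 1.81 to 2.50 FPKM in the other libraries.

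Among the sodium channel pores, Scn2a had the highest level in control libraries and the largest fall of the group. Scn2a, the channel of young axons and of excitatory neurons, was at 3.32, 4.10 and 6.27 FPKM in OGD+WR, 3.30, 3.60 and 6.76 FPKM in OGD and 38.7, 40.1 and 42.6 FPKM in control. All 6 OGD libraries lay far below the controls, and in each OGD group replicate 3 was the highest. Its log2 change in OGD against control was -3.28 ± 0.29 (95% interval -3.94 to -2.61, adjusted p = 6.81e-06), a 9.68-fold lower level. Scn8a, which sits at the axon initial segment and nodes of Ranvier, was at 6.65, 5.95 and 8.93 FPKM in OGD+WR, 7.62, 7.13 and 7.76 FPKM in OGD and 30.5, 31.0 and 27.7 FPKM in control, and fell by 2.07 ± 0.12. Scn3a, prominent in the embryonic brain, averaged 4.48 ± 0.794 FPKM in OGD and 19.9 ± 0.464 FPKM in control (SD, n = 3 each) and fell by 2.22 ± 0.14.

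Lower sodium pores fell as well. Scn1a, the main sodium channel of fast-spiking interneurons, averaged 1.57 ± 0.598 FPKM in OGD and 7.56 ± 0.151 FPKM in control and fell by 2.36 ± 0.22. Scn9a, best known from peripheral sensory neurons, fell by 1.96 ± 0.23, to 0.373 ± 0.112 FPKM in OGD against 1.33 ± 0.174 FPKM in control. Scn4a, the skeletal muscle channel, had 6 to 7 counts in OGD and 27 to 49 in control and passed the filter on low counts through its controls, so its log2 change of -2.41 ± 0.37 is a description. Sodium channel pores are close paralogs, and the rule by which reads matching several of them were counted is unknown here, which leaves the split of reads among them uncertain.

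Scn7a moved the other way. Its product resembles a sodium channel but works as a sensor of extracellular sodium, described in glia and in sensory regions of the brain. Scn7a was at 2.39, 2.11 and 1.81 FPKM in OGD+WR, 2.15, 2.50 and 2.35 FPKM in OGD and 0.19, 0.18 and 0.20 FPKM in control. No OGD library came near the controls, which had 14 to 25 counts each, against 157 to 285 counts in OGD. The log2 change was 3.53 ± 0.17 (95% interval 3.16 to 3.90, adjusted p = 1.77e-09), an 11.6-fold higher level. Astrocyte markers rose beside it, 9 of 10 with a median of 1.20. Other lists also had rises, in all 6 tested microglia markers, 5 of 6 progenitor markers (1 lower) and 6 of 10 oligodendrocyte lineage markers (3 lower). The microglia markers Aif1 and Cx3cr1 passed the filter on low counts through the libraries exposed to OGD, so their rises are descriptions. The cell source of Scn7a was not tested.

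Scn7a belongs to a chain of sodium channel genes on rat chromosome 3. In the RefSeq annotation of GRCr8, Scn3a and Scn2a are adjacent protein-coding genes, and Scn1a, Scn9a and Scn7a follow one another. Scn7a therefore rose beside a direct neighbour that fell. The 250 bases before the annotated start of these genes are shown to compare the 1 member of the chain that rose with 3 that fell. They come from RefSeq's table for GRCr8, in which 28 of the 43 members were matched by name. Capitals mark the letters of a GC box (GGGCGG on either strand), the sequence read by Sp-family factors.
Scn7a: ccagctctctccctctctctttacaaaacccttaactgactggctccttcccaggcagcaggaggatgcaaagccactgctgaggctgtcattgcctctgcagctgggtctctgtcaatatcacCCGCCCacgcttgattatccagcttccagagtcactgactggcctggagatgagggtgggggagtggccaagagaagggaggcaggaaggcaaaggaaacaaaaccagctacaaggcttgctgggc
Scn9a: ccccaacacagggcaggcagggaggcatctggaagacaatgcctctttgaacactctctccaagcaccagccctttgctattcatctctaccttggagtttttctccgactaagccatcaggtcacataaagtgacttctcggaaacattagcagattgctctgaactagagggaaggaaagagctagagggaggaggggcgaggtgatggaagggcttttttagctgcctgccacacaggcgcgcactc
Scn2a: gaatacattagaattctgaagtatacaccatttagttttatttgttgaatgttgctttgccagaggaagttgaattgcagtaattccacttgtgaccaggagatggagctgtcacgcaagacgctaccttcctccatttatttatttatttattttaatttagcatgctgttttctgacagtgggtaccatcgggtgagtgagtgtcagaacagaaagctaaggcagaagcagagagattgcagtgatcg
Scn3a: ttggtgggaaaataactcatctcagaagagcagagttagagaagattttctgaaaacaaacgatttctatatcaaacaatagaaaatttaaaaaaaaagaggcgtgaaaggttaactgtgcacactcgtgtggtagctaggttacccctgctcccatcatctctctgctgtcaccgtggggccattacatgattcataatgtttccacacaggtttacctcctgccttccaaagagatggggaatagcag

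The Scn7a window is chr3:71846285-71846534 on the minus strand, that of Scn9a chr3:71701378-71701627 on the minus strand, that of Scn2a chr3:70710706-70710955 on the plus strand and that of Scn3a chr3:70666199-70666448 on the minus strand. Their GC content was 56.0% for Scn7a, 52.4% for Scn9a, 39.6% for Scn2a and 41.6% for Scn3a, around a median of 51.2% over 33469 promoter windows of the same length. Scn7a held 1 GC box and the other printed windows none. The GC box stood in 30.5% of all windows, in 14 of the 28 matched members and in 11 of the 21 that fell. Windows were counted singly, while a member counted when any window under its symbol held the letters, so these shares are unlike measures. The letters TATAAA stood in 12.9% of all windows and in 2 members, Cacna1s and Cacng2, and CAGCACC, the left core of the RE1 element bound by the repressor REST, stood in 5.43% of all windows and in 1 member, Cacng3. Both strands were searched, and neither of these letter strings occurs in the printed windows, so no match there overlaps another. These matches are a description of the sequence.

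Calcium channel pores fell without exception among the 7 tested. Cacna1a, the P/Q-type pore that triggers fast transmitter release, was at 4.20, 4.36 and 4.81 FPKM in OGD+WR, 4.36, 3.82 and 5.03 FPKM in OGD and 31.0, 29.6 and 28.1 FPKM in control. The 6 OGD libraries were close to one another and all far below control. Its log2 change of -2.84 ± 0.10 (95% interval -3.06 to -2.61, adjusted p = 3.76e-10) was the largest fall of the group. The other presynaptic pores were the N-type gene Cacna1b, which averaged 4.64 ± 1.33 FPKM in OGD and 29.6 ± 1.43 FPKM in control and fell by 2.77 ± 0.17, and the R-type gene Cacna1e, which fell by 2.27 ± 0.13 to 4.93 ± 0.740 FPKM in OGD against 22.3 ± 1.19 FPKM in control.

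The T-type pores, which open at low voltage and support burst firing, were Cacna1g and Cacna1h. Cacna1g averaged 4.37 ± 0.515 FPKM in OGD and 28.4 ± 1.81 FPKM in control and fell by 2.79 ± 0.10. Cacna1h averaged 3.08 ± 0.483 FPKM in OGD and 15.7 ± 1.76 FPKM in control and fell by 2.44 ± 0.13. The L-type pores couple activity to gene expression. Cacna1c averaged 3.36 ± 0.517 FPKM in OGD and 9.86 ± 0.476 FPKM in control and fell by 1.64 ± 0.14, and Cacna1d averaged 2.85 ± 0.438 FPKM in OGD and 10.7 ± 0.257 FPKM in control and fell by 1.99 ± 0.12. The adjusted p of the 7 pores was at most 2.02e-07. Beside them, all 8 markers of excitatory neurons fell by a median of 2.51, and 6 of 7 markers of inhibitory neurons fell, with a list median of -2.63.

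The HCN genes described here all fell. Their channels open on hyperpolarization and dampen the dendrites of cortical pyramidal cells. Hcn2, the most abundant HCN gene per length in every group, was at 10.6, 9.60 and 9.89 FPKM in OGD+WR, 12.9, 10.2 and 10.5 FPKM in OGD and 48.9, 42.9 and 38.6 FPKM in control. It fell by 2.05 ± 0.12 (adjusted p = 6.73e-09). Hcn3 averaged 1.93 ± 0.290 FPKM in OGD and 12.5 ± 1.15 FPKM in control and fell by 2.79 ± 0.12. Hcn4, the pacemaker channel of the heart, averaged 1.31 ± 0.482 FPKM in OGD and 9.09 ± 0.607 FPKM in control and fell by 2.89 ± 0.21.

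**Figure D2:**
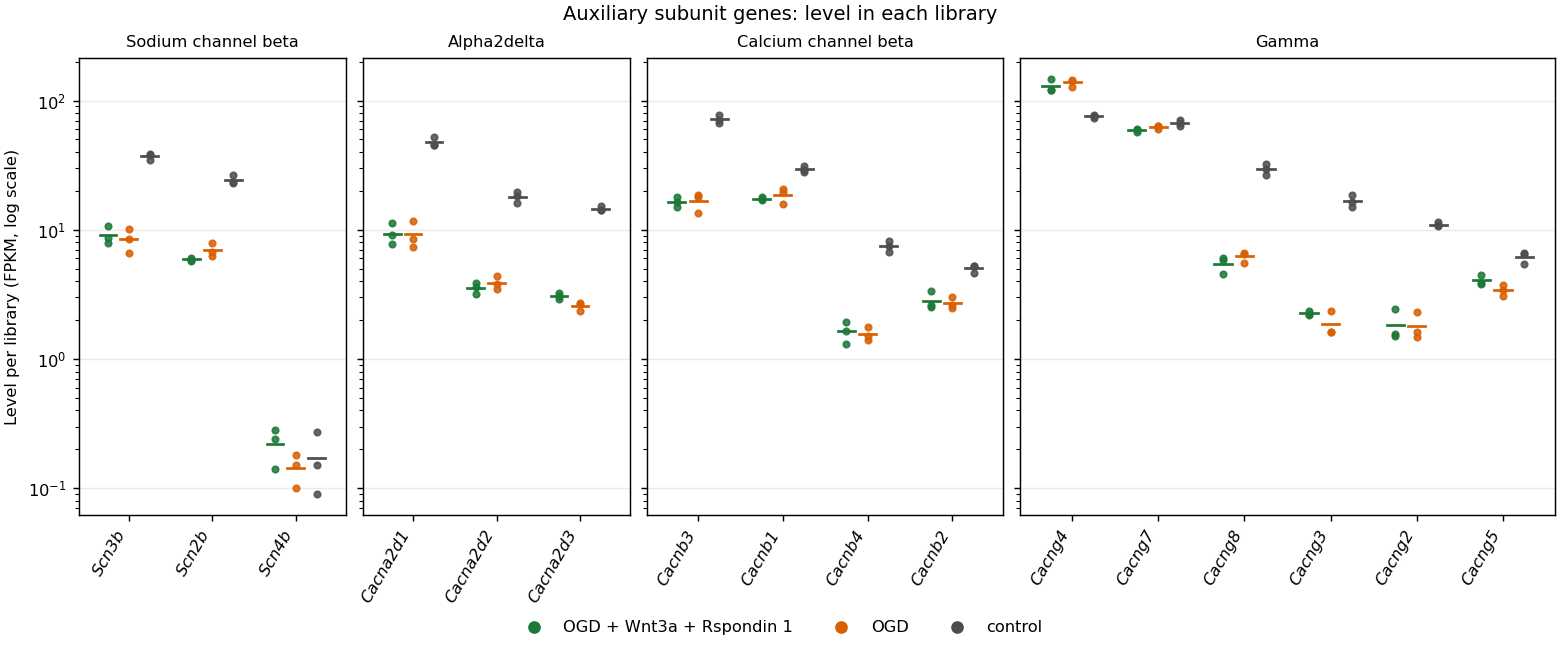
Level of tested auxiliary subunit genes in each library (points, FPKM on a log axis) with the mean of the 3 libraries (bars), for OGD+WR, OGD and control from left to right. Cacng4 is the gene whose OGD points lie above control (128 to 145 FPKM against 72.6 to 77.6 FPKM), and Cacng7 lies close to its control.

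Sodium channel beta subunits modulate gating and also serve as cell adhesion molecules. Scn3b was at 7.91, 8.70 and 10.6 FPKM in OGD+WR, 6.56, 8.52 and 10.2 FPKM in OGD and 38.5, 34.6 and 37.9 FPKM in control. All OGD libraries lay below control. Scn3b fell by 2.22 ± 0.14 (adjusted p = 1.27e-08), and Scn2b, which binds the pore covalently, fell by 1.90 ± 0.12, to 6.93 ± 0.805 FPKM in OGD against 24.4 ± 1.77 FPKM in control. Scn4b, linked to resurgent sodium current, had low levels of 0.14, 0.28 and 0.24 FPKM in OGD+WR, 0.10, 0.15 and 0.18 FPKM in OGD and 0.15, 0.27 and 0.09 FPKM in control. The libraries overlapped, and the change of -0.28 ± 0.45 did not pass (95% interval -1.25 to 0.69, adjusted p = 0.585). Without control replicate 2 it was 0.16 (adjusted p = 0.766).

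The 3 tested alpha2delta subunits, which carry calcium channels to the presynaptic membrane and include the binding sites of gabapentin, all fell. Cacna2d1 was at 7.74, 9.05 and 11.3 FPKM in OGD+WR, 7.40, 8.54 and 11.8 FPKM in OGD and 45.0, 45.6 and 52.3 FPKM in control, and fell by 2.46 ± 0.16 (adjusted p = 3.50e-08). Replicate 3 was the highest in each group. Cacna2d3 was at 2.89, 3.05 and 3.24 FPKM in OGD+WR, 2.65, 2.36 and 2.71 FPKM in OGD and 14.2, 15.1 and 14.3 FPKM in control, and fell by 2.59 ± 0.10 (adjusted p = 4.72e-10). Cacna2d2 averaged 3.90 ± 0.464 FPKM in OGD and 18.0 ± 1.68 FPKM in control and fell by 2.29 ± 0.12. The differences between these 3 falls were not tested.

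Cytosolic beta subunits bind the pore from inside and bring it to the membrane. All 4 fell. Cacnb3, a main beta subunit of the brain, was at 14.95, 16.3 and 18.1 FPKM in OGD+WR, 18.0, 13.6 and 18.6 FPKM in OGD and 78.0, 71.2 and 66.6 FPKM in control. The OGD groups overlapped and were all below control, with a fall of 2.20 ± 0.12 (adjusted p = 4.74e-09). Cacnb4, also neuronal, was at 1.31, 1.65 and 1.94 FPKM in OGD+WR, 1.41, 1.51 and 1.76 FPKM in OGD and 6.72, 7.51 and 8.16 FPKM in control, and fell by 2.34 ± 0.14, the largest fall of the group. Cacnb2, the main cardiac form, averaged 2.71 ± 0.285 FPKM in OGD and 5.03 ± 0.367 FPKM in control and fell by 0.94 ± 0.14. Cacnb1, the skeletal muscle form, averaged 18.7 ± 2.65 FPKM in OGD and 29.5 ± 1.78 FPKM in control and fell by 1.02 ± 0.10 in counts. The length implied by its counts and FPKM was 2498 to 2574 bases in OGD and 3044 to 3088 bases in control, so its FPKM values show a smaller fall than its counts do.

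The gamma group had members that fell, 1 that rose and 1 at nearly its control level. Cacng3, a TARP of the forebrain, was at 2.20, 2.24 and 2.36 FPKM in OGD+WR, 1.61, 1.62 and 2.35 FPKM in OGD and 18.7, 16.4 and 14.98 FPKM in control. OGD libraries were all low, and the fall was 3.26 ± 0.15 (adjusted p = 1.34e-09). Cacng2, known as stargazin, averaged 1.81 ± 0.456 FPKM in OGD and 11.0 ± 0.429 FPKM in control and fell by 2.70 ± 0.18. Cacng8, a hippocampal and cortical TARP, averaged 6.22 ± 0.623 FPKM in OGD and 29.5 ± 2.85 FPKM in control and fell by 2.34 ± 0.13. Cacng5, also an AMPA receptor regulator, fell by 0.93 ± 0.13, to 3.42 ± 0.310 FPKM in OGD against 6.15 ± 0.650 FPKM in control.

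Cacng4 had the highest FPKM of the channel genes in every library except control replicate 1, where Cacnb3 was slightly above it. This TARP was at 147, 121 and 120.1 FPKM in OGD+WR, 145, 143 and 128 FPKM in OGD and 77.6, 76.0 and 72.6 FPKM in control. Every OGD library exceeded every control. The log2 change was 0.79 ± 0.09 (95% interval 0.59 to 0.99, adjusted p = 5e-06). On GRCr8 chromosome 10 its neighbour on one side is Cacng5, which fell, and on the other Cacng1, which was not tested. Beside the rise of Cacng4, markers of neural progenitors (5 of 6 higher, 1 lower, median 1.64) and of the oligodendrocyte lineage (6 of 10 higher, 3 lower, median 0.87) also moved, and astrocyte markers rose as given above. Progenitor markers summed to 4016.7 to 4521.7 FPKM in OGD+WR, 4001.0 to 4567.6 FPKM in OGD and 1039.7 to 1171.1 FPKM in control. Most of this sum was Fabp7 (mean 2738.5 FPKM in OGD and 815.0 FPKM in control) and Vim (1390.2 FPKM and 197.4 FPKM). The lower progenitor marker was Hes5 (-1.80 ± 0.20), and Eomes had too few counts to test. Oligodendrocyte lineage markers summed to 1064.0 to 1152.7 FPKM in OGD+WR, 1102.9 to 1112.1 FPKM in OGD and 435.8 to 522.4 FPKM in control.

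Cacng7, the other abundant TARP, was at 60.2, 57.3 and 59.5 FPKM in OGD+WR, 63.3, 60.2 and 64.1 FPKM in OGD and 70.8, 64.1 and 67.1 FPKM in control. OGD and control were barely apart, with a change of -0.19 ± 0.07 (adjusted p = 0.0238). The call was lost with library totals as the scale (-0.11, adjusted p = 0.157), with the 6 libraries compared fitted alone (-0.17, adjusted p = 0.0648) and without OGD replicate 2 (adjusted p = 0.0873), control replicate 1 (0.11) or control replicate 3 (0.0558).

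**Figure D3:**
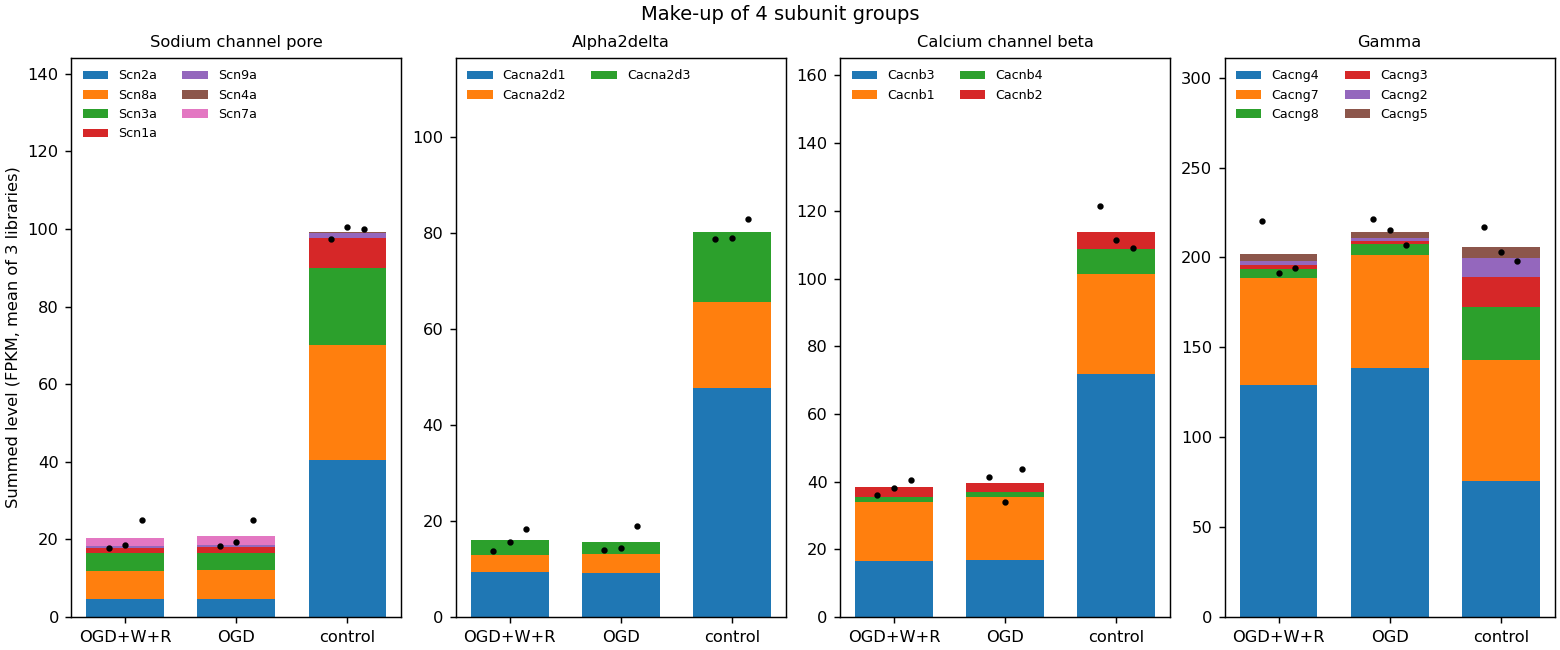
Level of tested members of 4 subunit groups (stacked bars, mean FPKM of the 3 libraries) in OGD+WR, OGD and control from left to right, with the sum of the members drawn in each library as a black point. Scn2a takes 4.55 FPKM of the sodium pore bar in OGD and 40.4 FPKM in control, and Cacng4 takes 138.6 FPKM of the gamma bar in OGD and 75.4 FPKM in control.

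Summed within each group of subunits, the levels of the pores were far below control. The sodium pores summed to 20.7 ± 3.98 FPKM in OGD+WR, 21.1 ± 3.60 FPKM in OGD and 99.8 ± 1.61 FPKM in control (SD, n = 3 each). Calcium pores summed to 26.1 ± 3.13 FPKM in OGD+WR, 27.6 ± 4.46 FPKM in OGD and 146.2 ± 6.96 FPKM in control, and HCN genes to 13.9 ± 0.0737 FPKM in OGD+WR, 15.2 ± 1.49 FPKM in OGD and 74.3 ± 6.82 FPKM in control. The gamma sum was 201.9 ± 15.8 FPKM in OGD+WR, 214.4 ± 7.15 FPKM in OGD and 206.1 ± 9.69 FPKM in control, and its libraries overlapped in all 3 groups although 6 of its members were called.

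The make-up of the groups differed with these sums. Scn2a made up 21.6% of the summed sodium pore FPKM in OGD+WR, 21.0 ± 5.04% in OGD and 40.5 ± 1.64% in control. Scn7a made up 10.5% in OGD+WR, 11.3 ± 1.76% in OGD and 0.191 ± 0.0109% in control, while Scn3a stayed near the same share (22.2% in OGD+WR, 21.3% in OGD and 19.8% to 20.1% in control). Hcn2 made up 72.3% of the HCN sum in OGD+WR, 73.8 ± 5.10% in OGD and 58.4 ± 1.64% in control. Cacng4 made up 63.9% of the gamma sum in OGD+WR, 64.6 ± 2.45% in OGD and 36.6 ± 0.852% in control. For each of these genes, the 3 OGD libraries lay on one side of the 3 controls. The shares are descriptions without a test.

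Partner genes that anchor, tether or regulate these channels were counted from a list of 27 symbols, of which 25 were in the tables and 22 had enough counts. In OGD against control 18 fell and 3 rose, while 36.8% of all tested genes were called lower and 36.3% higher. The 18 include Stac and Fgf14, whose falls are descriptions for the reason given below. Pex5l, which encodes the HCN trafficking subunit TRIP8b, was at 0.64, 0.70 and 0.80 FPKM in OGD+WR, 0.32, 0.41 and 0.61 FPKM in OGD and 4.64, 5.48 and 5.34 FPKM in control, and fell by 3.61 ± 0.20 (adjusted p = 5.42e-09). Stac, a regulator of L-type channels, had 3, 1 and 2 counts in OGD+WR, 4, 3 and 0 counts in OGD and 24, 16 and 22 counts in control. Its fall of 2.96 ± 0.56 (adjusted p = 0.000347) came through controls that alone cleared the filter on low counts, so it is a description. The presynaptic tethers Rims1 (-2.95), Rimbp2 (-2.30) and Tspoap1 (3.99-fold lower) fell, as did the initial segment scaffolds Ank3 (-2.03) and Sptbn4 (-2.28). Among the intracellular fibroblast growth factor homologous factors, which bind sodium channel tails, Fgf11 (-1.43), Fgf12 (-1.62) and Fgf13 (-2.75) fell. Fgf14 had 6 to 15 counts in OGD and 25 to 45 in control and passed the filter on low counts through its controls, so its change of -1.64 ± 0.38 is a description. The sodium leak channel gene Nalcn fell (-1.26), and so did its partners Unc79 (-0.77) and Unc80 (-2.32). Ank2, Cntn1 and Stac2 fell too, with changes between -2.23 and -0.82.

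Gem, a small GTPase that inhibits calcium channels through their beta subunits, rose. It was at 9.08, 13.0 and 13.6 FPKM in OGD+WR, 8.83, 7.85 and 10.8 FPKM in OGD and 1.04, 1.18 and 1.15 FPKM in control. Every OGD library stood well above control, with a log2 change of 2.93 ± 0.20 (95% interval 2.51 to 3.36, adjusted p = 2.41e-08). Its relative Rem2 fell by 1.49 ± 0.20, and Rrad, of the same family, had a change of -0.75 ± 0.35 that did not pass (adjusted p = 0.0665). The other rises were in Cachd1, an alpha2delta-like gene (0.71 ± 0.11), and Nfasc, the neurofascin of initial segments, nodes and glia (0.30 ± 0.10, adjusted p = 0.0144).

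**Figure D4:**
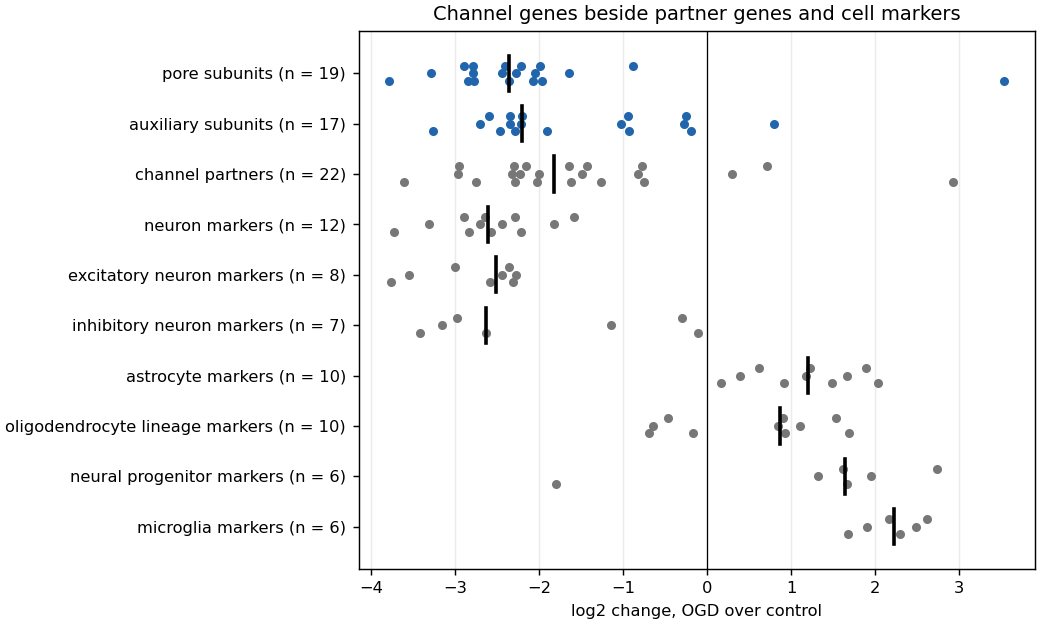
Log2 change in OGD over control of each tested gene (points) and the median of each list (black bars), for pore subunits, auxiliary subunits, channel partners and 7 lists of cell markers. Pore subunits (median -2.36) lie on the same side of 0 as neuron markers (median -2.60) and opposite to the astrocyte markers (median 1.20), except Scn7a at 3.53.

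Set beside the cell markers, 9 of the 36 tested members fell by more than the neuron marker median of 2.60, and 7 of these were pores. Of all 13693 tested genes, 722 had a change past that median. The neuron markers themselves ran from Map2 at -1.58 ± 0.12 to Syt1 at -3.72 ± 0.21, a range that holds most of the pore subunits. Excitatory neuron markers summed to 39.4 to 62.7 FPKM in OGD+WR, 40.9 to 65.8 FPKM in OGD and 361.4 to 374.2 FPKM in control, and inhibitory neuron markers to 119.1 to 126.2 FPKM in OGD+WR, 87.2 to 114.6 FPKM in OGD and 494.9 to 511.1 FPKM in control. Microglia markers summed to 22.1 to 25.4 FPKM in OGD+WR, 20.3 to 22.6 FPKM in OGD and 3.21 to 5.31 FPKM in control, and all 6 tested ones rose (median 2.22). Among these, Aif1 (1 to 3 counts in control) and Cx3cr1 (1 to 5) passed the filter on low counts through the libraries exposed to OGD. The rises of Aif1 and Cx3cr1 are descriptions, and P2ry12, Tmem119 and Ptprc had too few counts to test. Mural and fibroblast markers summed to 638.8 to 758.5 FPKM in OGD+WR, 670.3 to 884.1 FPKM in OGD and 91.3 to 115.0 FPKM in control, with 3 higher and 1 lower of 6 tested. Nearly all of this sum was Tagln, at 624 to 740 FPKM in OGD+WR, 653 to 863 FPKM in OGD and 84.9 to 106 FPKM in control. Dcn fell, and Col1a1 and Col3a1 were not called. Acta2 had 0 to 5 counts in control and passed the filter through the libraries exposed to OGD, so its rise is a description. Endothelial markers summed to at most 1.67 FPKM in any library, and Cldn5 was at 0 in all 9.

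**Figure D5:**
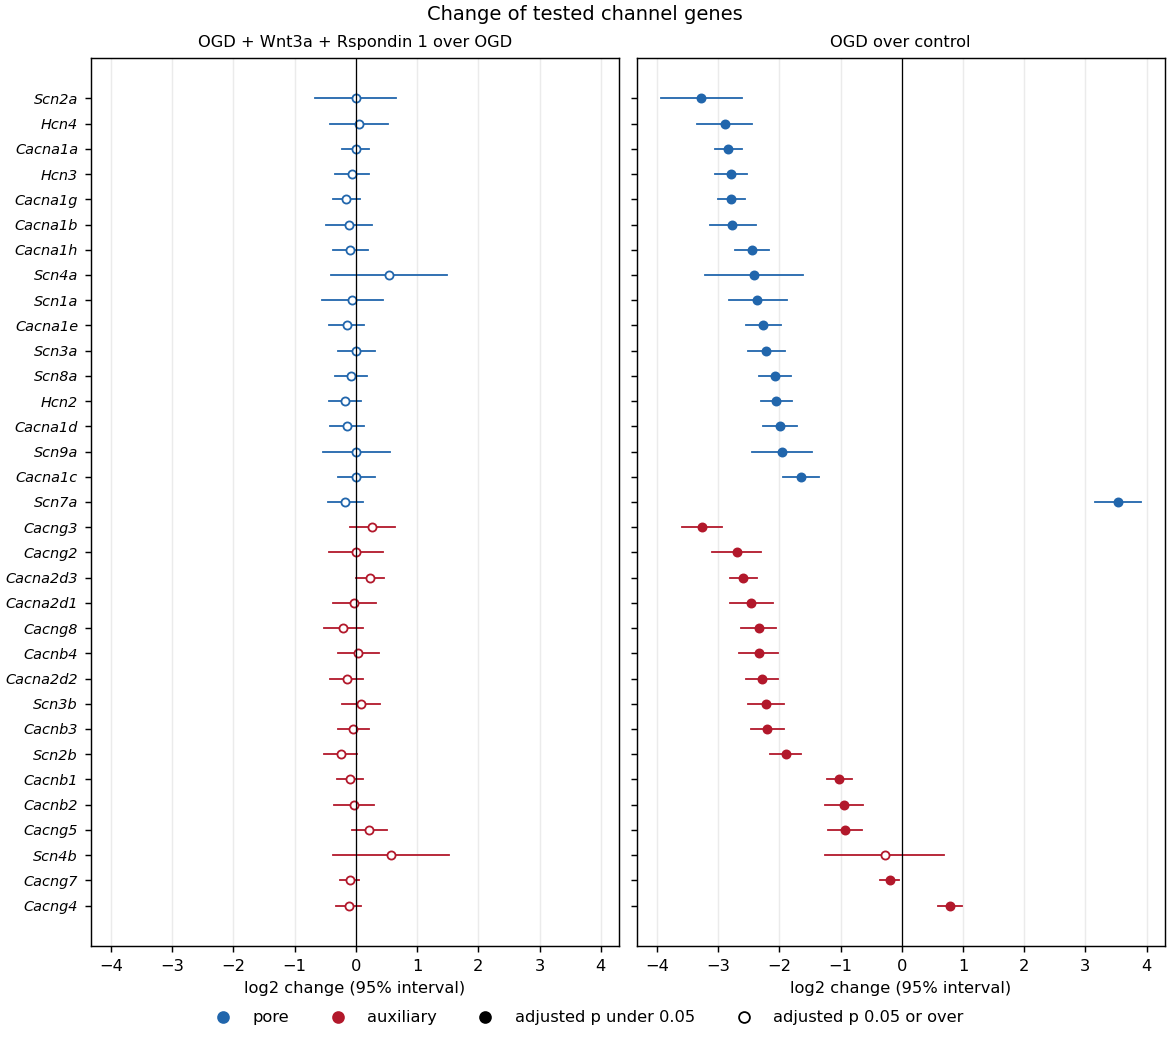
Log2 change of 33 tested channel genes with their 95% intervals, for OGD+WR over OGD (left) and OGD over control (right), with pore subunits in blue, auxiliary subunits in red and filled points for an adjusted p under 0.05. On the left, every point is open and lies between -0.25 (Scn2b) and 0.58 (Scn4b). On the right, all but Scn4b are filled, and Scn7a and Cacng4 are the filled points above 0. The filled point of Scn4a is a description, since this gene passed the filter on low counts through its controls.

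OGD+WR was set against OGD to ask which genes Wnt3a plus Rspondin 1 regulated under deprivation. None of the 36 tested channel genes was called by edgeR (0 members, against 0.197% of all tested genes, 0.0219% lower and 0.175% higher), and DESeq2 called 0 as well. At an unadjusted p under 0.05 there were 2 members, and 784 of 13693 genes overall. The median change was -0.05. For the 24 members with at least 100 counts in every library, the 95% intervals all lay within -0.66 to 0.65, and over all 36 the highest upper bound was 1.52, for Scn4b with its few counts. The authors' deposited table for this comparison had 0 members with an FDR under 0.05.

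Cacna2d3 was among the members with the smallest p in that comparison. It was at 2.89 to 3.24 FPKM in OGD+WR and 2.36 to 2.71 FPKM in OGD without overlap, with a change of 0.23 ± 0.10 (adjusted p = 0.865 by edgeR). In TMM-scaled CPM, the libraries of OGD+WR and OGD did not overlap for 5 of the 36 members, against 9.57% of all tested genes. Besides Cacna2d3 they included Scn2b (-0.25 ± 0.12, adjusted p = 0.941) and Cacng7 (-0.10 ± 0.07, adjusted p = 0.976; its FPKM values overlap narrowly), which were lower in OGD+WR, and Cacng5 (0.22 ± 0.13, adjusted p = 0.976), which was higher.

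Scn2a, Cacna1a, Scn7a and Cacng4, which moved in OGD against control, overlapped between the 2 OGD groups. The change in OGD+WR against OGD was -0.00 ± 0.29 for Scn2a (95% interval -0.66 to 0.65), -0.00 ± 0.10 for Cacna1a (-0.22 to 0.22), -0.17 ± 0.13 for Scn7a (-0.46 to 0.12) and -0.12 ± 0.09 for Cacng4 (-0.32 to 0.08). None of the 22 partner genes was called by edgeR or DESeq2, and 2 had an unadjusted p under 0.05. These were Pex5l (0.65 ± 0.24, adjusted p = 0.68), whose OGD+WR libraries all exceeded its OGD libraries, and Gem (0.36 ± 0.16, adjusted p = 0.865), whose libraries overlapped. None of the 12 neuron markers was called here, and 1 of 10 astrocyte markers was, the gap junction gene Gja1 (0.38 ± 0.06, adjusted p = 0.0404). OGD+WR was not tested against control, and its summed levels stand beside the others above.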

How the data were processed

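RNA-seq of 9 rat libraries was analysed, 3 per group, matched to groups by column names and sample titles. The count columns that the authors deposited hold whole, unnormalized read counts per gene, per the file headers and values, and the deposited FPKM columns scale these by length and library total. The authors' deposited log2 fold column and FDR (p-value) column come from a test the sources used here do not name, and serve only as their own results. Bowtie 0.12.2 is listed in the submitters' processing notes together with mm8 and mm9, both mouse builds, although the tables carry Ensembl identifiers of rat. The rat build, counter and strand setting are not given in the sources used here. Reads of overlapping or antisense genes therefore cannot be told apart. Sequences and gene order come from RefSeq on GRCr8 and were matched by symbol.

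The test was run in R 4.3.3 with edgeR 4.0.16. The filter (filterByExpr) kept genes with at least 0.588 CPM in 3 libraries and 15 counts in total. That CPM is 10 counts at the median library total. Counts were then scaled by TMM and fitted in 1 robust quasi-likelihood model with 3 group means, all 9 libraries and 6 residual degrees of freedom. Benjamini-Hochberg adjustment covered all 13693 tested genes. The fit was checked on simulated counts in which few genes changed, unlike the real OGD against control. In OGD+WR against OGD it recovered 45.5% of simulated log2 changes of 0.5, 90.9% of those of 1 and 97% of those of 2. For OGD against control these were 59.7%, 89.6% and 100%. A count of 0 allows up to 3 counts, which is 0.12 to 0.21 CPM per library and covers counting error only. Alternatives were RLE scaling, library totals, no filter, DESeq2 1.42.0, a fit of the 6 libraries compared, the replicate number as a block, each library left out, and CPM in place of FPKM for shares. For 29 members with enough counts, the gene length that FPKM and counts imply varied across libraries by at most 10% in 28, and by 23.6% in Cacnb1.

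Values per library are given, within each subunit group, for the member highest in control and the largest called rise and fall, and further for members against the majority or not called and for the 3 smallest p with Wnt3a plus Rspondin 1. Some of these members are not reported here, though counts and medians include them. Scn8a was added after its values were seen. Among partners the largest rise and the 2 largest falls were named, and others are given by change alone. The channel genes, partner list, marker lists and rules were chosen with earlier results of these data known. Itgam and Pecam1 among the markers were not matched.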

Additional observations from a re-analysis of the deposited data

How the results depend on the processing

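Of the channel genes, 30 to 33 fell and 2 rose in OGD against control when single libraries were left out. The other settings gave 31 lower with library totals, 32 with the 6 libraries compared, 33 with RLE factors, 34 with DESeq2 and 35 with no filter, each with 2 higher. Partner genes stayed at 18 to 19 lower and 2 to 4 higher. The call of Cacng7 was lost under several of these, and Scn4b, which was not called, ranged from -0.61 without control replicate 3 to 0.16 without control replicate 2; the cause was not tested. In OGD with Wnt3a plus Rspondin 1 against OGD, 0 channel genes and 0 partners were called under every setting run. Over all genes that comparison called 27, against 99 with DESeq2, 15 with the 6 libraries compared and 12 to 49 with 1 library left out (12 without OGD+WR replicate 2, 49 without OGD replicate 1). No pairing of libraries by replicate number is given in the labels. Same-numbered deviations from the group means correlated at 0.273, -0.055 and 0.105 in OGD against control. In OGD+WR against OGD they correlated at 0.232, 0.073 and 0.267. There each library correlated best with its own number, a hint of pairing from the data only. With the replicate block, 33 channel genes fell and 2 rose, and OGD+WR against OGD had 65 genes called, 0 of them channel genes. Library totals moved the median log2 change of all genes by 0.09 and the calls to 5526 higher and 4592 lower, against 4972 and 5040.

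Shares by CPM, without length scaling, differed from those by FPKM. In OGD+WR, OGD and control they were 54.7%, 57.0% and 41.4% for Hcn2 and 77.1%, 77.7% and 53.4% for Cacng4. In control, Scn8a was at 27.8% by CPM and 29.8% by FPKM, and Cacnb3 at 58.4% and 63.1%. In OGD the CPM and FPKM shares were 35.4% and 36.2% for Scn8a and 41.6% and 42.0% for Cacnb3. Hcn2 and Cacng4 kept their direction between OGD and control. Leaving out 1 library gave 18.1% to 22.6% for Scn2a in OGD, 71.7% to 76.7% for Hcn2 in OGD and 63.6% to 66.0% for Cacng4 in OGD. Depth limits Scn4a, Scn4b and the 7 untested members most.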
